A study of Mus musculus with 20 samples.

Results

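The 50 genes described here drive or mark the cell division cycle. They were chosen by symbol, ignoring case, from the 60607 human and 55335 mouse rows of the expression tables, and all 50 were found in both. By their known roles 15 act in DNA replication, 21 in mitosis and 14 in the control of entry into S phase (G1/S control). Their RNA was measured by sequencing in 20 livers 7 days after intravenous adenovirus at 2000000000 pfu per mouse, following a 4 h fast. The virus carried an shRNA against HuR (HuR KD) or was the control virus (LacZ). HuR, encoded by ELAVL1, is an RNA-binding protein best known for stabilizing messages with AU-rich elements. The wild type (WT) mice were male C57BL/6, with 6 HuR KD and 6 LacZ livers, bought at 8 weeks of age and acclimatized before use. The humanized mice, with 4 HuR KD and 4 LacZ livers, were TK-NOG mice, immune-deficient animals in which an albumin promoter drives a viral thymidine kinase in hepatocytes. At 8 to 9 weeks of age ganciclovir at 25 mg/kg killed the cells carrying this transgene, and human hepatocytes were then transplanted. Animals were used once human albumin in serum exceeded 0.5 mg/ml, measured 8 to 12 weeks after transplantation. Mouse hepatocytes can remain in such a liver, and its table lists human genes only. The shRNA was directed against human HuR in humanized mice and mouse HuR in WT mice, so that species, host and shRNA cannot be told apart.

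Adult hepatocytes rarely divide, and they re-enter the cycle after loss of liver mass. Cyclin D with CDK4 or CDK6 then inactivates RB1, which frees E2F factors to switch on genes for DNA synthesis, including the MCM2 to MCM7 helicase, the sliding clamp PCNA and ribonucleotide reductase (RRM1 and RRM2). Genes for mitosis follow later, through CHR elements and CCAAT boxes in their promoters. In whole liver, fewer dividing cells and less RNA per cell cannot be told apart.

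This split between earlier and later genes could be seen in the sequence of the mouse promoters. Windows of 300 bases (250 before and 50 after the annotated start, RefSeq, GRCm38.p6) were at hand for 40 of the 50 genes. The motifs searched, on both strands, were the CHR (TTTGAA), the CCAAT box (CCAAT), and E2F sites as TTTCCCGC, TTTGGCGC or the shorter TTCCCGC, which lies within the first of these. A CHR was found in 12 of 17 mitosis genes (70.6%), 2 of 13 replication genes and 1 of 10 G1/S control genes, against 20.2% of 27025 genes. An E2F site was found in 7 of 13 replication genes (53.8%), 3 of 10 G1/S control genes and 0 of 17 mitosis genes, against 5.79% of all genes. CCAAT boxes were found in 29 of 40 genes (72.5%), against 41.1%. They were common in each class: 14 of 17 mitosis genes (82.4%), 9 of 13 replication genes (69.2%) and 6 of 10 G1/S control genes (60%). The split was thus seen in the CHR and E2F letters. A match to these letters is a description and not a measured binding site. The 150 bases before the start are printed for 4 genes of DNA synthesis and its control whose values are given below, and for 2 mitosis genes for contrast, with the motifs in capitals.

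Mcm6 (chr1:128359706-128359855, minus strand): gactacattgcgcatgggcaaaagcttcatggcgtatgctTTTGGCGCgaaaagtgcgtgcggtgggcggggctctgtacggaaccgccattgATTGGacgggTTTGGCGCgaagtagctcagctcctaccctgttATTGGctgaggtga
Mcm7 (chr5:138171267-138171416, minus strand): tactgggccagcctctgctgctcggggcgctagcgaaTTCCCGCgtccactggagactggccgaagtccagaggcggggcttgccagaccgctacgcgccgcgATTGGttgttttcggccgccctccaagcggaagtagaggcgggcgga
Rrm2 (chr12:24708104-24708253, plus strand): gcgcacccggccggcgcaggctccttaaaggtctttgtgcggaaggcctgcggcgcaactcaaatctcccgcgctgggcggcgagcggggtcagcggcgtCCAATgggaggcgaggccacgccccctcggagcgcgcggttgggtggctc
Cdk4 (chr10:127063385-127063534, plus strand): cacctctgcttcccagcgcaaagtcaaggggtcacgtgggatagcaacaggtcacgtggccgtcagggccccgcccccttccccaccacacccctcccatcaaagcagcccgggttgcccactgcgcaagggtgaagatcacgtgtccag
Cdk1 (chr10:69352913-69353062, minus strand): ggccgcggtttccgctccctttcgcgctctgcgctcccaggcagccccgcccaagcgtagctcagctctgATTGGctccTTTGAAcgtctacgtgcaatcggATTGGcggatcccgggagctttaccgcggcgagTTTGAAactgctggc
Cdc20 (chr4:118437344-118437493, minus strand): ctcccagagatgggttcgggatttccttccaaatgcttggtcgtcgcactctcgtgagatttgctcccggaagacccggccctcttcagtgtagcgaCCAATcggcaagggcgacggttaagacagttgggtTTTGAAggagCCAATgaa

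Mcm6 held 2 E2F sites, at 110 and 47 bases before the start. Mcm7 has 2 annotated starts. The stretch before the one shown held the shorter E2F form, and the window of the other held the longer form (GCGGGAAA on this strand) at 165 bases before its start. Rrm2 held a CCAAT box alone. In Cdk4 none of these letters were found in this stretch. Cdk1 held a CHR at 71 and at 15 bases before the start, and Cdc20 held one at 18.

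**Figure D1:**
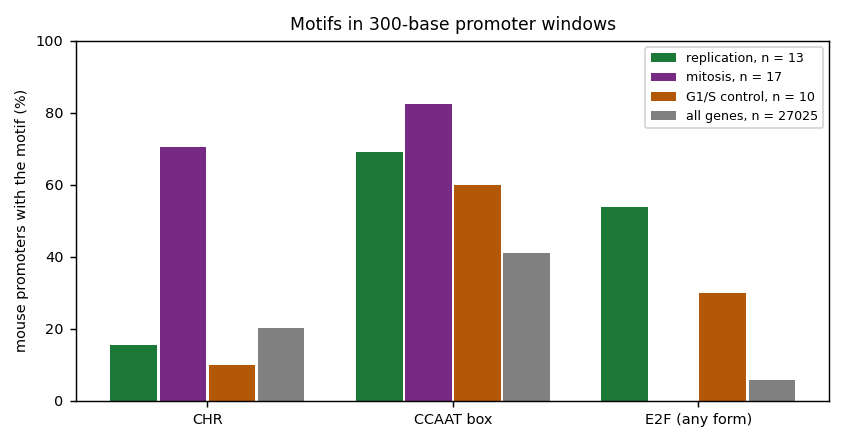
Share of genes (%, vertical axis) with a CHR, a CCAAT box or any E2F form in a mouse promoter window. Replication, mitosis and G1/S control genes are shown beside all 27025 genes. CHR letters are found in 70.6% of the mitosis genes and E2F letters in 53.8% of the replication genes.

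Values are TPM, transcript levels scaled to a common total per liver, which are scaled by gene length and so can be set side by side between genes. Reads recovered from the TPM steps numbered 2670469 to 20302454 per humanized liver and 1423985 to 44668272 per WT liver, the lowest being WT LacZ 2. HuR itself was lower in every HuR KD liver than in any LacZ liver. ELAVL1 was at 2.37 to 4.05 TPM against 4.77 to 6.17 in the humanized livers, and Elavl1 at 3.72 to 5.62 against 8.58 to 10.7 in the WT livers. Hepatocyte markers had the highest sum of the marker lists in both tables, at least 38733 TPM in every liver. In the humanized livers HuR KD 4 and LacZ 2 stood apart. They were the deepest libraries, and mitochondrial rRNA made up 49.1% of TPM in each, against 27.2% to 36.0% in the others. LacZ 2 was the lowest of the 4 control livers for 44 of the 50 genes and the lowest of all 8 livers for 36, so values are also given without it where that turned the sign or the call of a value given here.

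The human and mouse tables listed these genes at different TPM. In the humanized livers the median gene had a mean of 4.80 TPM, 14 genes exceeded 10 TPM, and PCNA was highest at 77.0 TPM. In the WT livers the median was 2.03 TPM, 4 genes exceeded 10 TPM, and Cdk4 was highest at 30.2 TPM. These levels come from tables normalized separately and not on the same scale. Mitochondrial rRNA took 27.2% to 49.1% of TPM in the humanized livers and 0% in the WT livers. Protein-coding genes held 28.9% to 37.8% against 75.6% to 77.6%. The levels therefore cannot be compared between the species. A mean of at least 1 TPM was required for a test, which 48 human and 37 mouse genes reached. The human genes below it were CCND2 and PRC1. CCND2, a D-type cyclin, was listed at no more than 0.114 TPM while its processed copy CCND2P1 held 3.72 to 26.1 TPM, so that reads may have been assigned to the copy. The 13 mouse genes below it were 11 mitosis genes (Ccnb1, Bub1, Mad2l1, Aurkb, Plk1, Tpx2, Prc1, Ect2, Anln, Foxm1 and Cenpe) together with Cdc6 and Ccne1.

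Each liver was given a score per class, for which log2(TPM + 1) was centred gene by gene and averaged. In the humanized livers the mitosis score was -0.22 to 0.31 with HuR KD and -0.73 to 0.35 with LacZ, and the replication score was -0.18 to 0.28 against -0.69 to 0.31. LacZ 2 held the lowest value of both, and the other 3 LacZ livers lay within or close to the HuR KD range. In the WT livers the mitosis score was -0.47 to 0.46 with HuR KD and -0.37 to 0.42 with LacZ. LacZ 1, HuR KD 1 and HuR KD 2 had the highest mitosis scores, so that high livers came from both groups. The WT replication score was -0.20 to 0.31 with HuR KD and -0.29 to 0.15 with LacZ, and the groups overlapped.

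**Figure D2:**
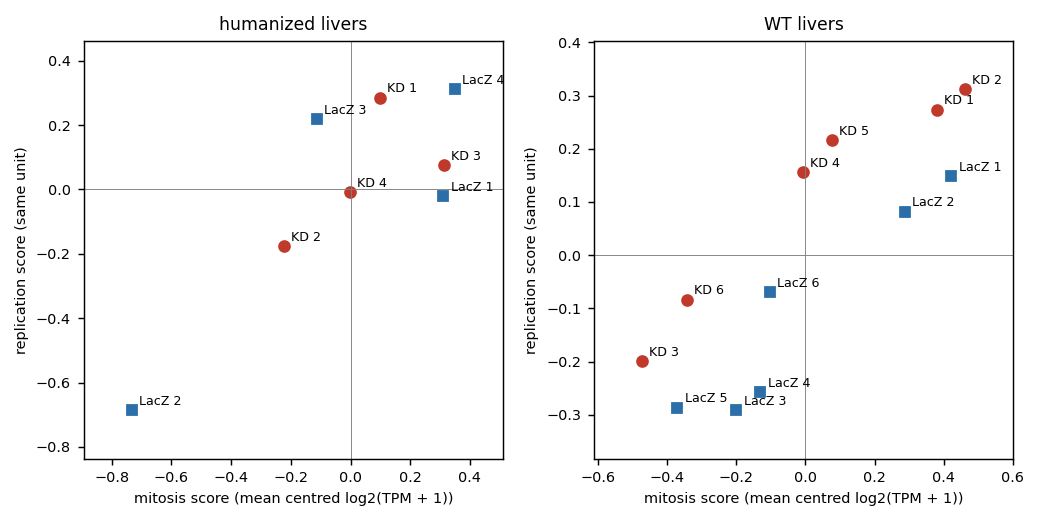
Replication score (vertical) against mitosis score (horizontal), both the mean centred log2(TPM + 1), for each humanized liver (left) and WT liver (right); circles are HuR KD and squares LacZ. Humanized LacZ 2 lies alone at -0.73 and -0.69, and the WT groups overlap on both axes.

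The first comparison asked which of these genes differed between HuR KD and LacZ in human hepatocytes. In the humanized livers 3 of 48 genes were called at an unadjusted p under 0.05 (limma): RRM2 and CCNB2 were higher and GMNN lower. Over all 12738 human genes the same rule called 11.5% (3.6% higher and 7.87% lower), so the share of these genes, 6.25%, was below the background. After Benjamini-Hochberg adjustment 0 of the 48 were called, against 0.212% of all genes. Groups did not overlap for 1 gene, RRM2, against 7.16% of all genes. The split of calls depended on scaling: 31.4% of all calls were higher as deposited, and 47.5% after median-of-ratios scaling.

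RRM2, the small subunit of ribonucleotide reductase, was at 8.33, 6.88, 9.48 and 7.86 TPM with HuR KD and at 4.24, 2.15, 5.28 and 5.02 TPM with LacZ. Every HuR KD liver was above every LacZ liver. The log2 fold change was 0.86 (SE 0.23, limma p = 0.00395, adjusted p = 0.172), and the exact permutation p was 0.0286, the smallest that 70 groupings allow. Without LacZ 2 the log2 fold change was 0.64, and the gene was still called. The large subunit, RRM1, was at 18.1 ± 2.78 TPM against 18.1 ± 5.14 (SD, n = 4 each), with a log2 fold change of 0.03, or -0.14 without LacZ 2.

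GMNN, geminin, binds CDT1 and blocks a further round of origin licensing. It was at 11.4, 7.04, 11.6 and 7.47 TPM with HuR KD and at 15.8, 8.68, 23.2 and 24.3 TPM with LacZ, and LacZ 2 was the one control inside the HuR KD range. The log2 fold change was -0.81 (SE 0.31, limma p = 0.0288, adjusted p = 0.365, exact permutation p = 0.0857). The call was lost when HuR KD 2, HuR KD 4, LacZ 3 or LacZ 4 was left out (-0.69, -0.72, -0.66 and -0.64). CCNB2, a B-type cyclin that activates CDK1 at mitosis, was at 4.19, 5.46, 5.33 and 4.65 TPM against 3.55, 2.32, 3.14 and 4.45. LacZ 4 alone reached the HuR KD range. Its log2 fold change was 0.45 (SE 0.18, limma p = 0.0319, adjusted p = 0.376, exact permutation p = 0.0571). The call ended without LacZ 2 (0.33), and also without HuR KD 2, HuR KD 3 or LacZ 3 (0.41, 0.42 and 0.44) and under the replicate block (limma adjusted p = 0.509).

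Of the 20 mitosis genes tested CCNB2 alone was called. Their median log2 fold change was 0.09, with 15 of 20 above 0, against 0.14 for replication, 0.06 for G1/S control and -0.05 for all genes tested. With voom on the recovered reads all 20 were above 0, with a median of 0.35, against 0.32 for replication, 0.23 for G1/S control and 0.00 for all genes, and AURKB and CCNB2 were called. Without LacZ 2 these medians were -0.17 for mitosis, -0.07 for replication and -0.19 for G1/S control, against -0.09 for all genes. Other settings also turned a class median below 0: it was -0.04 for mitosis without HuR KD 3, -0.10 for G1/S control without HuR KD 1 and -0.03 for G1/S control at a mean TPM of at least 5. Leaving out LacZ 2 gave 5 calls of 48 (10.4%), of which RRM2 was higher and GMNN, MCM3, MCM6 and KIF20A were lower. Over all 12766 genes of that fit 1958 were called (15.3%), 73.2% of them lower. LacZ 2 had been set apart for its low values of the cycle genes, being the lowest control for 44 of 50. Leaving it out therefore lowers most of their humanized fold changes by construction. The lower medians and added lower calls without it are no separate support for a decrease. The proliferation marker MKI67 was at 3.02 to 4.69 TPM with HuR KD against 1.62 in LacZ 2 and 2.76 to 4.87 in the other 3 controls. TOP2A, the topoisomerase that untangles chromosomes, was at 17.3 ± 3.61 TPM against 16.2 ± 5.95, and CDK1, the mitotic kinase, at 8.82 ± 1.68 against 7.31 ± 3.08. CCNB1 and CDC20 had log2 fold changes of 0.03 and 0.08, smaller than their SEs of 0.27 and 0.34. Without LacZ 2 the log2 fold changes of CCNB1 and CDC20 were both -0.26, that of TOP2A went from 0.15 to -0.13, that of MKI67 from 0.16 to -0.06 and that of CDK1 from 0.31 to 0.04.

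**Figure D3:**
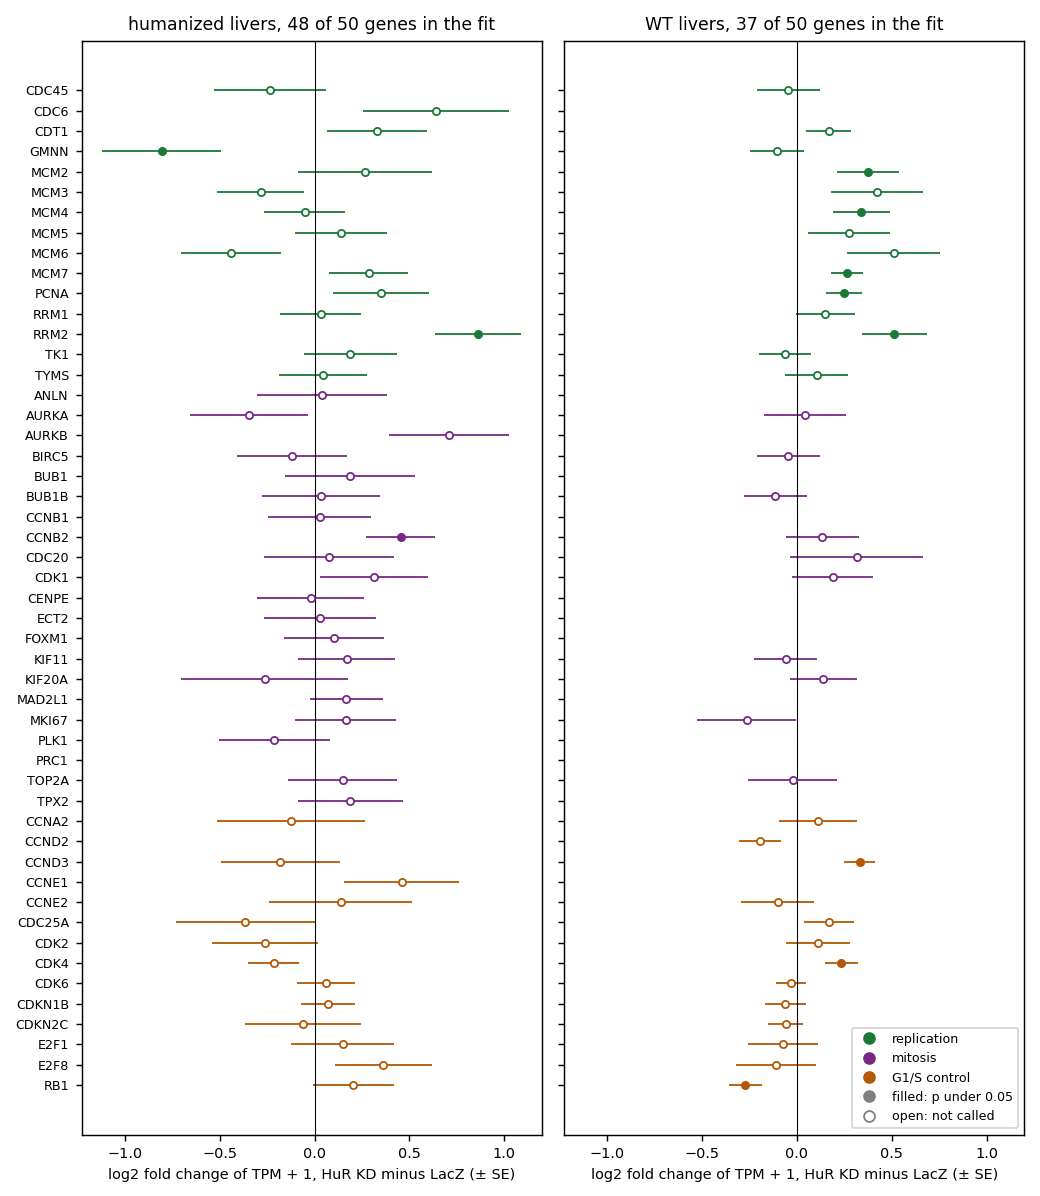
Log2 fold change of TPM + 1, HuR KD minus LacZ, with its SE (horizontal axis), for each gene in the fit of the humanized livers (left) and WT livers (right), coloured by class. Filled points passed an unadjusted p under 0.05: 3 of 48 in the humanized and 8 of 37 in the WT livers.

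The same question was then asked of the WT livers. Here 8 of 37 genes were called (21.6%), 7 higher and 1 lower, against 16% of the 15090 mouse genes (9.09% higher and 6.94% lower). The 7 were Mcm2, Mcm4, Mcm7, Pcna, Rrm2, Cdk4 and Ccnd3, and Rb1 was lower. All 5 called replication genes were higher, and 0 of 10 mitosis genes were called. Adjusted p-values called 0 of the 37, against 0.888% of all genes, and groups did not overlap for Ccnd3 and Rb1, against 2.49% of all genes.

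Replication genes had a median log2 fold change of 0.26, with 11 of 14 above 0, against 0.01 for mitosis, -0.06 for G1/S control and 0.03 for all genes. The mitosis median was 0.17 with voom, 0.15 without HuR KD 6 and LacZ 2 (9 of 12 above 0) and 0.14 without HuR KD 3 (9 of 11 above 0), with no mitosis gene called in these fits, while replication stood at 0.32, 0.30 and 0.30. Rrm2 ranged from 3.61 to 8.72 TPM with HuR KD (median 7.81) and from 3.56 to 4.90 with LacZ (median 4.39). All HuR KD livers but HuR KD 3 were above every LacZ liver, HuR KD 6 by the small margin of 4.95 against 4.90 TPM. Its log2 fold change was 0.51 (SE 0.17, limma p = 0.011, adjusted p = 0.169, exact permutation p = 0.0325). Pcna, which holds DNA polymerase on its template, was at 20.1 to 28.3 TPM (median 24.8) against 18.7 to 24.4 (median 19.8), with a log2 fold change of 0.25 (SE 0.09, limma p = 0.0202, exact permutation p = 0.0195). A processed copy, Pcna-ps2, was listed at 2.08 to 8.68 TPM, so part of these reads may have been split. Rrm1, Tyms and Tk1, which also serve nucleotide supply, had log2 fold changes of 0.15, 0.10 and -0.06 and were not called.

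The 6 subunits of the MCM helicase, which opens DNA at origins, all had fold changes above 0 in the WT livers. Mcm7 was at 6.49 to 8.93 TPM (median 7.70) against 5.37 to 7.30 (median 6.17), a log2 fold change of 0.26 (SE 0.09, limma p = 0.00918, adjusted p = 0.158, exact permutation p = 0.013). The precursors of miR-25 and miR-93 overlap exons annotated for it. Mcm2 and Mcm4 were called at 0.37 and 0.34 (limma p = 0.0419 and 0.0414, exact permutation p = 0.0563 and 0.0714), and neither call was firm: Mcm2 was lost without HuR KD 1, 2, 5 or 6 or LacZ 3, 4, 5 or 6 (0.29 to 0.39), and Mcm4 without HuR KD 1, 2, 4 or 5 or LacZ 3, 4 or 5 (0.29 to 0.33). Mcm6 had the same log2 fold change as Rrm2, 0.51, with a wider SE of 0.25 (limma p = 0.0594, exact permutation p = 0.0952). It was at 14.8, 14.9, 6.93, 12.8, 14.1 and 6.20 TPM with HuR KD and at 9.52, 12.0, 5.0, 6.0, 6.18 and 7.68 with LacZ. HuR KD 3 and HuR KD 6 were as low as the controls. Leaving out HuR KD 6 and LacZ 2, the 2 shallowest libraries, gave 0.78 (SE 0.21) for Mcm6, which was then called, with Mcm2, Mcm4 and Mcm7 still called. That fit called 10 of 39 cycle genes (25.6%), close to the 23.2% of all genes. With all livers Mcm3 (0.42) and Mcm5 (0.27) were not called, and Mcm3 was at 0.22 without LacZ 2. With voom Mcm5 was at 0.56 (adjusted p = 0.206) and Mcm6 at 0.75 (adjusted p = 0.0756), and both were called at an unadjusted p under 0.05. Voom called 10 of 37 cycle genes (27.0%), against 20% of all genes. In LacZ 2 the Mcm3 value rested on 3 reads, and the 50 genes had 0 to 71 reads each.

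**Figure D4:**
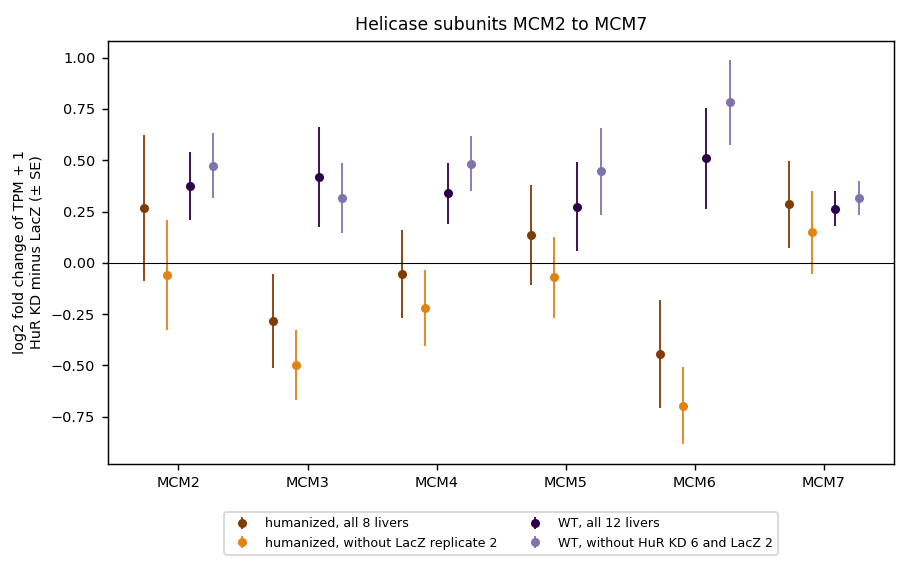
Log2 fold change of TPM + 1, HuR KD minus LacZ, with its SE (vertical axis) for MCM2 to MCM7 in humanized and WT livers, with all livers and with the livers named in the key left out. The WT points lie above 0 for all 6 subunits. With all humanized livers MCM3 and MCM6 lie below 0, and MCM4 slightly so (-0.05). Without humanized LacZ 2 those of MCM2 (-0.06), MCM4 (-0.22) and MCM5 (-0.07) lie below 0 as well, and MCM7 alone stays above.

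Of the genes that control entry into S phase, Ccnd3, a D-type cyclin, was at 13.9 to 16.9 TPM with HuR KD (median 15.4) and 9.47 to 13.6 with LacZ (median 12.4). The groups did not overlap, with a log2 fold change of 0.33 (SE 0.08, limma p = 0.00158, adjusted p = 0.0774) and an exact permutation p of 0.00216, the smallest that 924 groupings allow. Its kinase partner Cdk4 was at 25.3 to 37.5 TPM (median 33.1) against 25.2 to 29.3 (median 28.1), a log2 fold change of 0.23 (SE 0.09, limma p = 0.017, exact permutation p = 0.026). All HuR KD livers but HuR KD 6 were above every control. Rb1, the brake that cyclin D kinases release, was at 4.50 to 6.62 TPM (median 6.49) against 6.78 to 8.48 (median 7.65). Every HuR KD liver was below every LacZ liver, and the log2 fold change was -0.27 (SE 0.09, limma p = 0.00912, adjusted p = 0.158, exact permutation p = 0.00216). Cdk6, Cdk2, Ccnd2 and Ccna2 had log2 fold changes of -0.03, 0.11, -0.19 and 0.11, and the CDK inhibitors Cdkn1b and Cdkn2c both had -0.06. None of these was called.

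The WT mitosis genes spread widely within both groups. Mki67 was at 1.01 to 4.89 TPM with HuR KD and 2.20 to 6.08 with LacZ (log2 fold change -0.26, exact permutation p = 0.392). Top2a was at 0.959 to 3.4 against 1.13 to 3.57 TPM, Cdk1 at 0.768 to 2.46 against 0.614 to 2.24, and Cdc20, which activates the anaphase-promoting complex, at 0.543 to 4.90 against 0.811 to 4.54. The groups overlapped for each of these. For Cdc20 the highest control was LacZ 2, where the value rested on 5 reads. Markers of other cells differed beside these genes: summed NK and cytotoxic markers were 3.25 to 11.1 TPM with HuR KD against 7.43 to 18.7 with LacZ (3 of 5 tested called lower), and Kupffer cell and macrophage markers 117 to 197 against 164 to 230 (3 of 6 called lower). T cell markers were 7.91 to 13.8 against 10.6 to 15.1 TPM, with 0 of 5 called. Erythroid markers were 173 to 573 TPM (median 403) against 236 to 364 (median 289), with 1 of 4 called higher, and endothelial markers 132 to 164 against 124 to 158, with 1 of 6 called higher. In the humanized table T cell, NK, B cell and macrophage markers each summed to at most 5.02 TPM in any liver. There the cholangiocyte markers were 5.26 to 29.4 TPM with HuR KD against 11.5 to 44.4 with LacZ (2 of 4 called lower). Stellate cell and fibroblast markers summed to 0.757 to 1.68 against 2.53 to 4.76. The groups did not overlap for this sum, against 7.16% of single genes tested. It rested largely on RELN (0.501 to 4.12 TPM), since 5 of the 6 markers were under 1 TPM in every liver. The part of such cells in the levels of the cycle genes was not tested in either table.

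**Figure D5:**
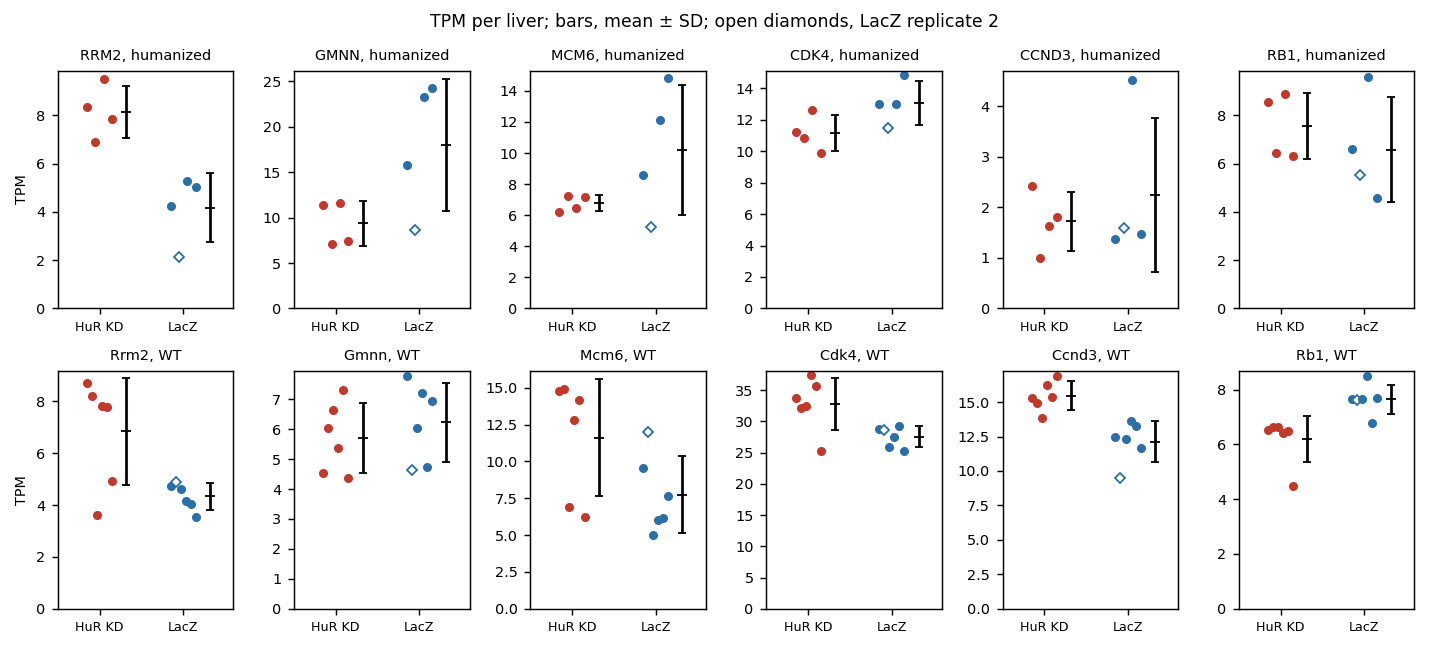
TPM in each liver (vertical axis, from 0) for RRM2, GMNN, MCM6, CDK4, CCND3 and RB1 in humanized (top) and WT livers (bottom), with mean ± SD beside each group and LacZ 2 as an open diamond. RRM2 in the humanized livers, and Ccnd3 and Rb1 in the WT livers, show groups that do not overlap.

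Whether the response differed between the species was tested as an interaction over 8202 gene pairs of the same symbol, 36 of them from the 50 genes. At an unadjusted p under 0.05, 4 of 36 were called (11.1%), against 19.7% of all pairs, and 0 after adjustment, against 5.01%. The humanized effect was lower than the WT effect for MCM6 by 0.95 on the log2 scale (SE 0.37, limma adjusted p = 0.147), for GMNN by 0.70 (SE 0.31, adjusted p = 0.207) and for CDK4 by 0.45 (SE 0.15, adjusted p = 0.0816), and higher for RB1 by 0.48 (SE 0.21, adjusted p = 0.192). MCM6 was at 6.20, 7.26, 6.47 and 7.20 TPM with HuR KD and at 8.58, 5.24, 12.2 and 14.8 with LacZ in the humanized livers, where its own log2 fold change of -0.44 was not called (exact permutation p = 0.229). CDK4 was at 11.2, 10.8, 12.6 and 9.88 against 13.0, 11.4, 13.0 and 14.9 TPM there, a log2 fold change of -0.21. This fit shares one spread between the species, although the median spread within groups was 0.316 in the humanized and 0.203 in the WT livers on the log2 scale. With a separate spread in each species MCM6, CDK4 and GMNN were still called (limma adjusted p = 0.161, 0.188 and 0.307), RB1 was not, and MCM3 was (-0.70, SE 0.32). The adjusted calls over all pairs went from 411 to 155. Without humanized LacZ 2 the joint fit called 8 of 36 genes (22.2%), all with a lower humanized effect. Over all 8210 pairs of that fit 2033 were called (24.8%), 75.3% of them lower. GMNN, MCM6 and CDK4 then passed adjustment (limma adjusted p = 0.0175, 0.0317 and 0.0369), as did 835 of the 8210 pairs. LacZ 2 had been set apart for its low values of the cycle genes, and it was the lowest control for each of these. Leaving it out therefore lowers their humanized fold changes by construction, and these adjusted p-values are no separate support. Of the 4 genes, CDK4 was called in every fit that left out 1 liver, MCM6 was lost without humanized LacZ 4 (-0.76), and GMNN and RB1 were lost without any of 8 and 5 single livers. RRM2, called higher in both species, had a difference of 0.35 (SE 0.28) and was not called, with 0.13 without humanized LacZ 2.

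Among 104 other cycle genes listed beside these, 4 of 28 replication genes tested were higher in the WT livers and 0 lower, against 9.09% and 6.94% of all genes. The 4 were Rnaseh2a (0.20), Pold1 (0.27), Prim1 (0.54) and Lig1 (0.26), which prime, extend, join or clear strands during DNA synthesis. Of 16 other mitosis genes 1 was higher, Cks1b (0.31), and of 20 other G1/S control genes 3 were higher, E2f4 (0.25), E2f5 (0.26) and Fzr1 (0.26), and Ccnd1 was lower (-0.43). In the humanized livers, where 3.6% of all genes were higher and 7.87% lower, 0 of 32 other replication genes were higher, and RPA2, a subunit of the single-strand binding protein, was lower (-1.34). Of 35 other mitosis genes ESPL1, the protease that cuts cohesin, and CKS2 were higher (1.17 and 0.52) and CENPA, the centromeric histone, was lower (-0.88). Of 21 other G1/S control genes CCND1, CDKN1A and RBL1 were higher (0.58, 0.81 and 0.61) and CDKN2B was lower (-0.98). CCND1 was thus called in opposite directions in the 2 species, at 59.9 to 72.7 against 29.8 to 57.5 TPM in the humanized livers and at 4.48 to 7.75 against 6.28 to 9.84 TPM in the WT livers.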

How the data were processed

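Strand-specific total RNA libraries of 20 livers were sequenced. The authors trimmed the reads, aligned them with HISAT2 and counted them with featureCounts (builds mm10 and GRCh38 in the submitters' processing notes), and deposited TPM in 1 table of human genes and 1 of mouse genes. The TPM formula was not given in the sources used here. Each table was fitted separately with limma 3.58.1 (R 4.3.3) as log2(TPM + 1), using eBayes with its trend option, after dropping genes whose mean was under 1 TPM. A fold change on this scale understates that of low genes. Genes were called where the unadjusted p was below 0.05, the study's own threshold, with Benjamini-Hochberg adjusted values beside it. The species were compared in a joint limma fit over the 4 groups. Single genes were also compared by two-sided exact permutation.

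Reads per gene were recovered from the steps of the TPM, as whole numbers matched within 0.004 reads over at least 4 libraries, for 18702 human and 25110 mouse genes (100% of those eligible), and limma's voom was run on them as an alternative. Scripts were tested on simulated data. On these, the joint fit called more unchanged genes than its threshold allows, since one spread is shared by species of unequal spread. A fit with a separate spread in each species was therefore added. The recovery at first doubled some simulated libraries, which was corrected, and the reads recovered from the deposited tables were the same before and after.

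The genes and lists were chosen with earlier results of these data known. Named genes are a fixed set of members, every member called or with groups that do not overlap, and up to 4 called genes per other list; further members are named by class. Replicate numbers did not pair the livers. Alternatives were a pseudocount of 0.1, the filter removed or raised to 5 TPM, median-of-ratios and quantile scaling, no trend, a replicate block, voom and each liver left out. A term for humanized HuR KD 4 and LacZ 2, leaving both out, leaving out WT HuR KD 6 and LacZ 2, and the separate spread were chosen after seeing the data. Python 3.11.15, numpy 2.4.6, pandas 2.3.3 and matplotlib 3.10.9 were used.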

Additional observations from a re-analysis of the deposited data

Results flagged for a closer look

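In 12 of 186 groups of livers tested, 1 liver lay far from the others of its group (Dixon's criterion), and chance flags about 1 in 20 groups. In the humanized livers these were CCND3 in LacZ 3 (4.52 TPM, next 1.6), MCM7 in HuR KD 1 (20.9 TPM, next 16.2), PCNA in LacZ 2 (36.5 TPM, next 75.5) and BUB1 in HuR KD 2 (1.69 TPM, next 2.95). In the WT livers HuR KD 6 was low for Rb1 (4.50 TPM, next 6.42), Cdkn1b (8.71 TPM, next 12.6) and Cdc25a (0.656 TPM, next 1.38). LacZ 2, the shallowest library, was high for Tyms (5.57 TPM, next 3.0) and Birc5 (3.49 TPM, next 1.62), on 20 and 7 reads. Cdk6 in HuR KD 1 (10.6 TPM), Cdt1 in HuR KD 2 (3.52 TPM) and Tyms in HuR KD 3 (2.11 TPM) were the others.

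The interaction test called 4 of 36 genes at an unadjusted p under 0.05 (11.1%), a share below the 19.7% of all pairs. Host and shRNA went with species in this test. The humanized minus WT log2 fold change was -0.45 for CDK4, -0.70 for GMNN, -0.95 for MCM6 and 0.48 for RB1. None passed adjustment with all livers. Without humanized LacZ 2 CDK4, GMNN and MCM6 did, and without humanized LacZ 3 RB1 did (limma adjusted p = 0.0453). LacZ 2 had been set apart for its low values of the cycle genes, so the passes without it are no separate support. The RB1 difference was not called with a separate spread in each species.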

How the results depend on the processing

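The humanized count of 3 called genes was 6 with voom (all higher, 12.5% against 10.7% of all genes). It was 5 with a term for HuR KD 4 and LacZ 2 (10.4% against 15.1%) and 0 after adjustment (against 0.212%). It ranged from 2 to 5 with single livers left out, with 5 without LacZ 2 (10.4% against 15.3%). The share of all genes called ranged from 8.57% to 15.3% in these fits. The WT count of 8 was 0 after adjustment (against 0.888% of all genes). It ranged from 6 without HuR KD 1 (16.7% against 14% of all genes) to 10 without LacZ 1 (27.8% against 14.4%). The interaction count of 4 was 8 without humanized HuR KD 4 and LacZ 2 (22.2% against 26% of all pairs) and 0 after adjustment (against 5.01%). It was 3 to 8 with single livers left out, where 17.4% to 24.8% of all pairs were called. Voom and the WT fit without HuR KD 6 and LacZ 2 gave 1 and 2 WT genes with adjusted p under 0.05, as did the fits without WT HuR KD 3 or 6 (1 each). Many other genes passed in these fits too: 530 of all 15077 with voom, 251 of 15089 without WT HuR KD 3 and 371 of 15124 without WT HuR KD 6. The fit without HuR KD 6 and LacZ 2 passed more genes over all than any of these. For the interaction 3 genes passed adjustment without humanized LacZ 2, 2 without humanized HuR KD 4 and LacZ 2, and 1 each with the term for that pair and without humanized HuR KD 3, humanized LacZ 3 or WT HuR KD 6. Over all 8179 to 8213 pairs these fits gave, in the same order, 835, 967, 704, 474, 318 and 542. Replicate numbers did not pair the livers, since deviations of same-numbered livers correlated from -0.249 to 0.137 in the humanized and -0.142 to 0.206 in the WT livers. With the replicate block the counts were 3, 10 and 5 (6.25%, 27.0% and 13.9%, against 11%, 14.9% and 19.4% of all genes or pairs). CCNB2 was lost, and AURKB, Mcm5, Mcm6 and the MCM3 interaction were gained. GMNN was lost with voom (log2 fold change -0.71). No called gene changed direction under any alternative run. At a mean TPM of at least 5 no WT mitosis gene was left. Adjusted calls over all pairs fell from 411 to 155 with a separate spread. Low TPM in WT LacZ 2 rest on few reads.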
